A study of Mus musculus with 69 samples.

Results

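The 10 genes described are 6 subunits of the AP-1 transcription factor (Fos, Fosb, Fosl2, Jun, Junb and Jund), the related bZIP factor Atf3, and 3 immediate early genes outside that family (Egr1, Ier2 and Dusp1). They were chosen by name, with earlier results of these data known, and their probesets are those that carry 1 gene symbol in the platform annotation. This gave 90 of 259411 singly named probesets and 10 of 20958 genes, in a table of 451804 probesets. The probesets number 6 for Fos, 5 for Fosb, 11 for Fosl2, 21 for Jun, 6 for Junb, 9 for Jund, 7 for Atf3, 16 for Egr1, 3 for Ier2 and 6 for Dusp1. Each gene is reported by its lead probeset, the one of highest mean log2 intensity over all arrays, and the others are counted beside it. A level here is the log2 of the RMA intensity of 1 probeset in 1 array, and probesets of different genes cannot be ranked against each other.

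Immediate early genes are transcribed within minutes of a stimulus, from factors already present in the cell, and their mRNAs are short-lived. FOS proteins pair with JUN proteins to form AP-1, which binds DNA as a dimer, and ATF3 pairs with the same family. EGR1 is a zinc finger factor, IER2 is a nuclear protein, and DUSP1 is a phosphatase that switches off the MAP kinases which induce the group. In hematopoiesis AP-1 and EGR1 are known for roles in myeloid differentiation and in stem cell quiescence. Tissue dissociation, staining and flow sorting can also induce these genes, so each array counts here as much as each mean.

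Expression was measured on Affymetrix Mouse Exon 1.0 ST arrays, 1 sample to an array, in 52 sorted marrow samples of WT mice and of mice with PML-RARA knocked into the Ctsg gene (mCG-PR), in 2 samples of Ctsg KO mice and in 15 acute promyelocytic leukemias (APL) of mCG-PR mice. All mice are labelled Bl/6, and all but the Ctsg KO mice Bl/6 Taconic. The Ctsg locus drives the transgene, so its level in a population follows that locus. Marrow came from single mice and was sorted straight into Trizol, whereas the leukemias came from spleen. SLAM cells, the stem cell fraction of the KLS gate, had 2 WT arrays (6 weeks) and 2 mCG-PR arrays (7 weeks, backcross N17). KLS cells, lineage-negative cells with KIT and SCA-1, had 4 WT arrays (labelled 12 or 13 weeks) and 5 mCG-PR arrays (2 at 13 and 3 at 6 weeks, N17). Common myeloid progenitors (CMP), granulocyte-monocyte progenitors (GMP) and megakaryocyte-erythrocyte progenitors (MEP) had 3, 4 and 4 WT arrays (7 weeks) and 4 mCG-PR arrays each (9 weeks, N24). Promyelocytes had 6 WT and 3 mCG-PR arrays and neutrophils 4 and 3, all at 6 weeks, the mCG-PR mice at N22. The Ctsg KO mice were 10 weeks old (N10), and the leukemias (N10) are labelled with 238 to 553 days to progression.

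Sequence upstream of 5 members is shown. Most probesets of these genes, or their lead probeset, were lower in CMPs than in KLS cells and higher again in promyelocytes. The same held for the lead probeset of Jund and for most probesets of Atf3, whose windows were searched but are not shown. The letters TGACG, with which the cyclic AMP response element (CRE, TGACGTCA) begins, recur in 4 of the 5 shown (Fos, Fosb, Junb and Dusp1). Each run holds 250 bases before the RefSeq start and 50 after it, read 5′ to 3′ on the gene's strand in GRCm38.p6, with the matches in capitals.
Fos, chr12:85473640-85473939, plus strand: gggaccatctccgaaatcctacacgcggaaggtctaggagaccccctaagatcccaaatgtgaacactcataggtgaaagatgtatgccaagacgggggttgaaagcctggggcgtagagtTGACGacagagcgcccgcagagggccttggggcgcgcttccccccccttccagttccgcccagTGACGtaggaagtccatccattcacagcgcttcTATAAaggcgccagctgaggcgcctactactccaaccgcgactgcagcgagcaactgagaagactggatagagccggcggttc
Fosb, chr7:19309996-19310295, minus strand: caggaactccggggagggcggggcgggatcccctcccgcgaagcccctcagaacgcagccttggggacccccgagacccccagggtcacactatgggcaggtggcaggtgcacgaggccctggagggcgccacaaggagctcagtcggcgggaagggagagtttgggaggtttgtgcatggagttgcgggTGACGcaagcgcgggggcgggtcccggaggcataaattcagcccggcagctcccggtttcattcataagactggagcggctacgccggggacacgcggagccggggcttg
Junb, chr8:84978699-84978998, minus strand: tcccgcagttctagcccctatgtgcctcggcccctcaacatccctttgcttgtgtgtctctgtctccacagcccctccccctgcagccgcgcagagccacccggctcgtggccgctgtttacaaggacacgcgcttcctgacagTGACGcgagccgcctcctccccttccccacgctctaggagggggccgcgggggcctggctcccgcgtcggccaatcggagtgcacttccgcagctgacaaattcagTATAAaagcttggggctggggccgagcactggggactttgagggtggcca
Dusp1, chr17:26508423-26508722, minus strand: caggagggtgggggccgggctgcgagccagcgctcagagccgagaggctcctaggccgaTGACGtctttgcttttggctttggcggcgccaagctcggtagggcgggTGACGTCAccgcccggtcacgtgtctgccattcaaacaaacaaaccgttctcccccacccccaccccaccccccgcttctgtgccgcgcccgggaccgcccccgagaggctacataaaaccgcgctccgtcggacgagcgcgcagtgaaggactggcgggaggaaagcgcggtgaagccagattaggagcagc
Jun, chr4:95052173-95052472, minus strand: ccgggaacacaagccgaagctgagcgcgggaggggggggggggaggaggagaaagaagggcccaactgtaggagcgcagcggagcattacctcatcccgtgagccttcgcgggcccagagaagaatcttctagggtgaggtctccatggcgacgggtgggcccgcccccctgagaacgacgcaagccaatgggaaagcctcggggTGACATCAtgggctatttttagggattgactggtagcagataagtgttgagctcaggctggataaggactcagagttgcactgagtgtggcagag
RefSeq windows for 8 members, Ier2 and Egr1 not among them, were searched on both strands. TGACG was found in 5 of the 8 (at 2 places in Fos, in Fosb, in Junb, in Dusp1 and on the reverse strand in Atf3), against 20.8% of 32851 windows of this length. The whole CRE was found in Dusp1, where it overlaps 2 of the TGACG matches, and in 1.79% of all windows. Jun held TGACATCA, found in 3.62% of windows. TATAA was found in Fos and Junb and in 24.9% of windows. The AP-1 letters TGACTCA, whose reverse complement is TGAGTCA, were found in none of the 8 and in 5.2% of all windows, and the CArG box, to which serum response factor binds, in none of the 8 and in 1.63%. A match is a run of letters only, and the probesets could not be placed on these starts.

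The share of probesets at or above an intensity of 200, the study's level of noise on this platform, was at most 25.1% in each of the 69 arrays. The Ctsg KO arrays went against their KLS label. Kit read 1497 and 1070 in them, below the 3491 to 5232 of the other KLS arrays, and the summed intensity of 9 neutrophil granule genes was 49523 and 56349, against 3683 to 9969 in the other KLS arrays. Among the 4 SLAM arrays, WT replicate 2 stood apart, with 31262 for the same granule sum and 5097 for Ltf alone, against 8813 and 409 in WT replicate 1. CMP replicate 5114, GMP replicate 5216 and MEP replicates 5315 and 5316 of the mCG-PR mice were also set apart from their groups. This choice was made after the data were seen. The share at 200 was 23.72% in 5114 and 23.47% in 5216, against at least 24.72% and 24.73% in the rest of their groups. Mpo read 3498 and 3381 in 5315 and 5316, against 367 and 424 in the other mCG-PR MEP arrays. WT CMP replicate 4111 and WT GMP replicates 4212 and 4213, whose marker genes also differed from their groups, were kept. Values without the arrays set apart are given where they differ. All 23 CMP, GMP and MEP arrays lie in 1 run of consecutive array numbers that holds nothing else, so that in every comparison of these populations with others, population and run cannot be told apart. In bulk samples such as these, fewer cells that transcribe a gene and less RNA per cell cannot be told apart either.

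**Figure D1:**
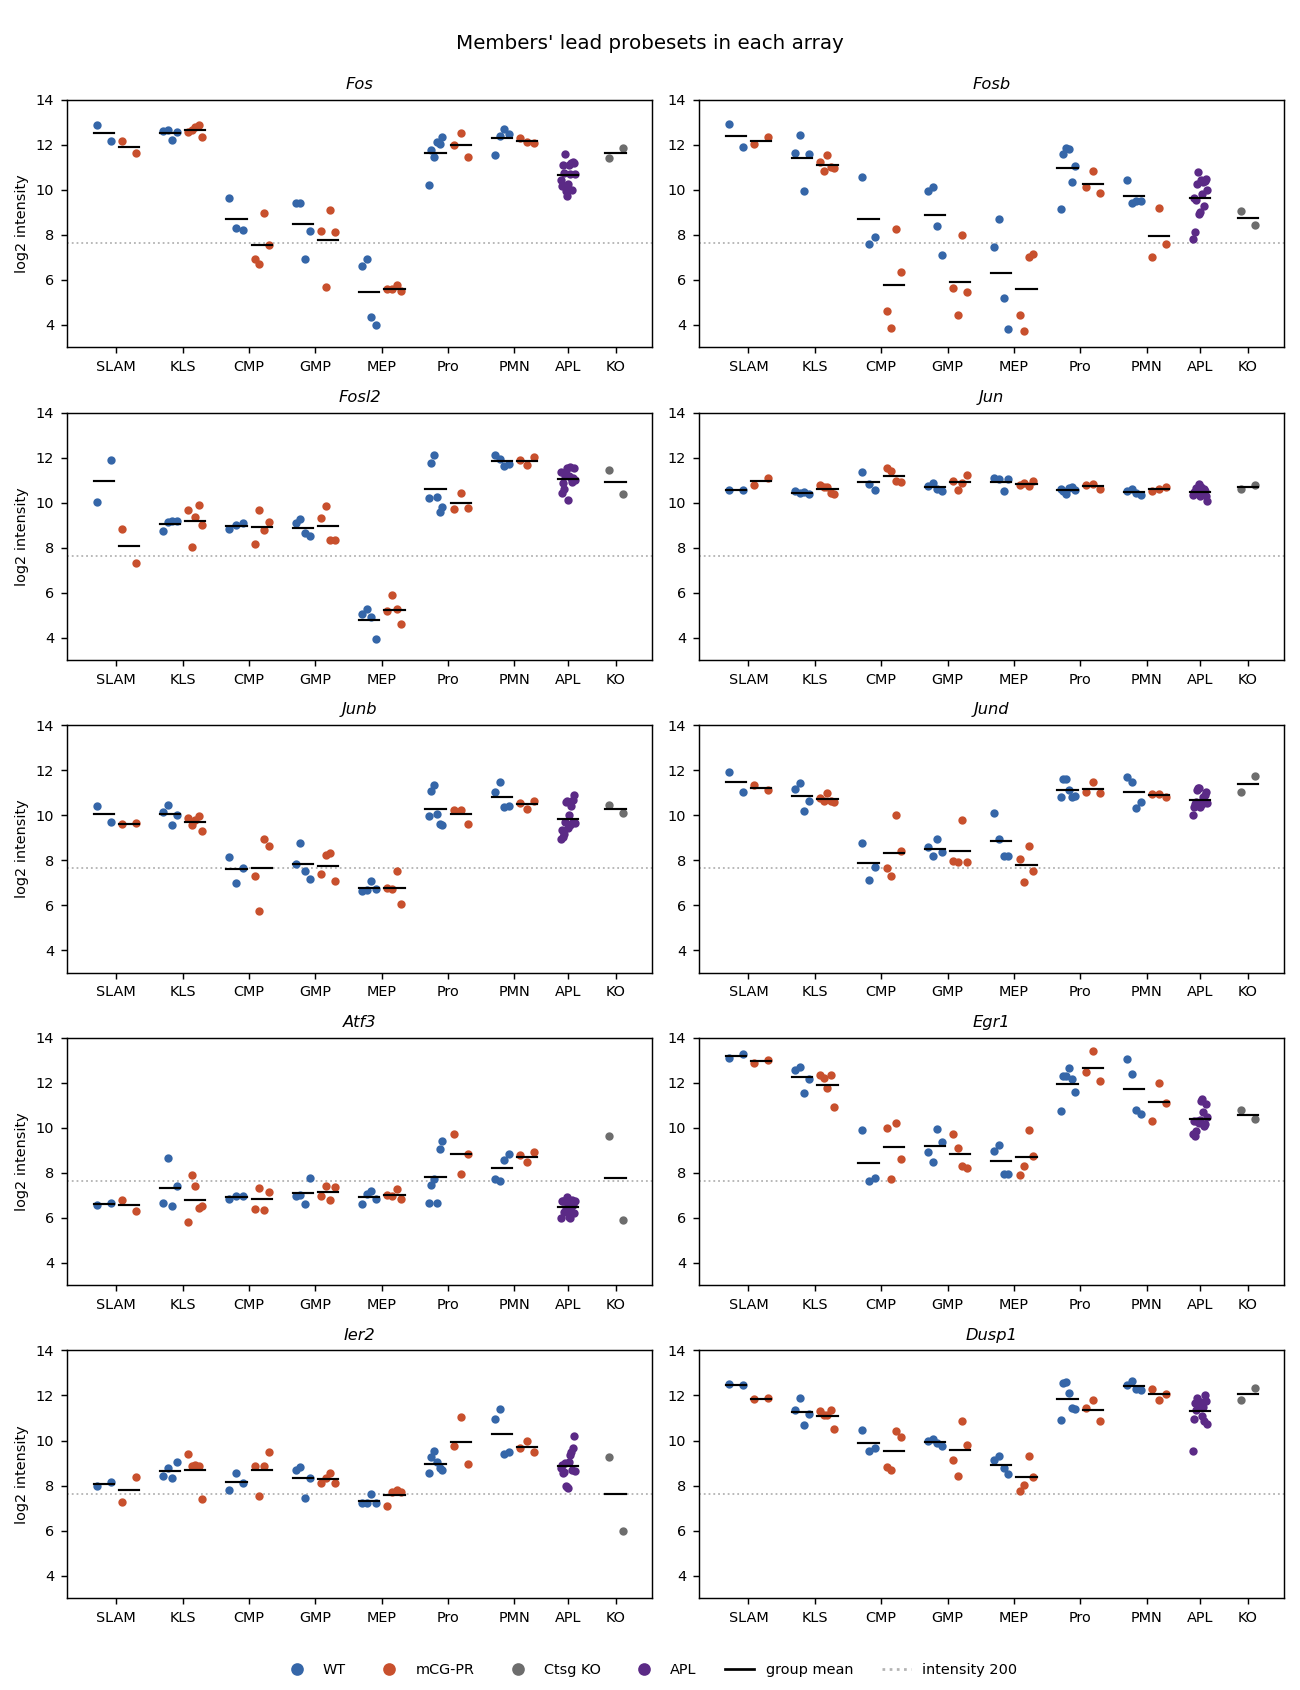
Log2 intensity of each member's lead probeset in every array (points), by population and genotype, with the mean of each group as a line and the intensity of 200 as a dotted line. For Fos, Egr1, Junb and Jund every CMP, GMP and MEP array lay below every other sorted WT or mCG-PR array, whereas the lead probeset of Jun stayed between 10.07 and 11.53 in every array.

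Fos, the founding partner of AP-1, was high in the stem cell gates. Its log2 intensity was 12.89 and 12.19 in the WT and 12.16 and 11.65 in the mCG-PR SLAM arrays. In KLS cells it was 12.60, 12.67, 12.23 and 12.56 in WT mice and 12.55, 12.68, 12.81, 12.90 and 12.37 in mCG-PR mice. Of the 4 SLAM arrays 3 were below all 9 KLS arrays. In CMPs Fos read 9.65, 8.31 and 8.22 in WT and 6.94, 6.69, 8.96 and 7.55 in mCG-PR arrays. In GMPs it read 9.40, 9.41, 6.93 and 8.16 in WT and 8.16, 5.69, 9.09 and 8.12 in mCG-PR arrays. The replicates of these 2 populations spread widely, but the highest of them was below the lowest SLAM or KLS array. MEPs were lower still, at 6.62, 6.94, 4.37 and 3.99 in WT and 5.58, 5.61, 5.76 and 5.49 in mCG-PR mice, all 8 under the noise level. Promyelocytes were high again, at 10.24, 11.77, 11.46, 12.11, 12.04 and 12.34 in WT and 11.99, 12.55 and 11.47 in mCG-PR mice. Neutrophils read 11.57, 12.40, 12.70 and 12.49 in WT and 12.29, 12.13 and 12.10 in mCG-PR mice. WT promyelocyte replicate 1 was the lowest of the mature arrays, and yet higher than each of the 23 CMP, GMP and MEP arrays. The 15 leukemias had a lowest value of 9.72, a median of 10.69 and a highest value of 11.61, which overlaps the lower WT promyelocytes.

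Fosb, a close paralog of Fos that is induced by the same signals, followed a similar course with a wider spread. It read 12.91 and 11.90 in WT and 12.04 and 12.35 in mCG-PR SLAM cells, and 9.93 to 12.43 in the 9 KLS arrays. In CMPs the WT arrays read 10.59, 7.59 and 7.91 and the mCG-PR arrays 4.64, 3.86, 8.25 and 6.35. In GMPs the WT arrays read 9.97, 10.12, 8.41 and 7.11 and the mCG-PR arrays 5.65, 4.46, 7.99 and 5.46. The genotypes overlapped in both populations, through 1 mCG-PR array each (5115 and 5215). In MEPs Fosb ran from 3.82 to 8.73 in WT and from 3.75 to 7.15 in mCG-PR mice. Promyelocytes spanned 9.13 to 11.85 in WT and read 10.13, 10.86 and 9.85 in mCG-PR mice. Neutrophils read 10.42, 9.42, 9.50 and 9.49 in WT and 7.04, 9.21 and 7.61 in mCG-PR mice, so that here the genotypes did not overlap. The leukemias ran from 7.83 through a median of 9.82 to 10.81.

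Fosl2, which encodes FRA-2, a FOS protein without a strong transactivation domain, had a course of its own, highest in neutrophils. The WT neutrophils read 12.11, 11.93, 11.61 and 11.71 and the mCG-PR neutrophils 11.91, 11.66 and 12.01. WT promyelocytes read 10.20, 11.74, 12.12, 10.23, 9.58 and 9.82 and mCG-PR promyelocytes 9.73, 10.43 and 9.78. Replicates 2 and 3 of the WT promyelocytes reached the neutrophil range and the other 7 promyelocyte arrays did not. KLS, CMP and GMP groups had means between 8.88 and 9.18, and all 8 MEP arrays between 3.96 and 5.87, under the noise level. In SLAM cells Fosl2 read 10.01 and 11.87 in WT and 8.83 and 7.32 in mCG-PR mice. The value of 11.87 belongs to the WT SLAM array with the high granule genes, and the Ctsg KO arrays, also high in those genes, read 11.44 and 10.39. The part of neutrophil RNA in these values was not tested.

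Among the JUN proteins, Junb read 9.28 to 10.47 in the 13 SLAM and KLS arrays and 5.72 to 8.94 in the 23 CMP, GMP and MEP arrays. It read 9.96, 11.06, 11.36, 10.07, 9.60 and 9.58 in WT promyelocytes and 11.02, 11.48, 10.36 and 10.39 in WT neutrophils. No array of the 3 progenitor populations reached the lowest of the other 29 sorted arrays. Jund, which encodes the JUN protein known for steady expression, also had a lead probeset that was lower in the same 23 arrays (7.02 to 10.11) than in the other 29 (10.20 to 11.91), though with hardly a gap. For Jun the lead probeset, 4636455, was the flattest of all members, from 10.32 to 11.53 over the 52 sorted arrays, and it does not stand for the gene. Another Jun probeset, chosen after its values were seen, ran from 4.39 to 10.47 in CMPs, GMPs and MEPs and from 10.70 to 12.78 in the other sorted arrays, again without overlap.

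Egr1 was highest in SLAM cells, at 13.12 and 13.28 in WT and 12.89 and 13.02 in mCG-PR arrays. KLS cells read 12.56, 12.70, 11.57 and 12.15 in WT and 12.34, 12.22, 11.79, 12.33 and 10.93 in mCG-PR mice, each below every SLAM array. CMP, GMP and MEP arrays ran from 7.66 to 10.20, all below the lowest of the other sorted arrays (10.32). Promyelocytes read 10.75, 12.31, 12.28, 12.66, 12.18 and 11.60 in WT and 12.46, 13.41 and 12.07 in mCG-PR mice. WT neutrophils split by run of array numbers, with 13.07 and 12.40 in the first run and 10.79 and 10.60 in the other, and mCG-PR neutrophils read 10.32, 12.00 and 11.11. Ier2 showed the same split, with 10.97 and 11.38 against 9.39 and 9.47. Over the other populations Ier2 read 7.26 to 9.39 in SLAM and KLS cells, 7.09 to 9.50 in CMPs, GMPs and MEPs and 8.55 to 11.05 in promyelocytes. Another Ier2 probeset, chosen after its values were seen, went the other way, from 6.70 to 10.28 in CMPs, GMPs and MEPs (median 8.69) and from 6.20 to 8.39 in the other sorted arrays (median 6.83). Dusp1 read 12.51 and 12.46 in WT and 11.85 and 11.87 in mCG-PR SLAM cells, 10.51 to 11.88 in KLS cells, 8.43 to 10.89 in CMPs and GMPs and 7.77 to 9.31 in MEPs. It returned to 10.87 to 12.58 in promyelocytes and 11.82 to 12.66 in neutrophils.

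Atf3, a stress-induced repressor, was near the noise level (log2 of 7.64) in most arrays. By its lead probeset it was below that level in all SLAM arrays, all 7 CMP arrays, all 8 MEP arrays and all 15 leukemias. WT promyelocytes read 6.64, 7.46, 7.71 and 6.67 in replicates 1 to 4 and 9.06 and 9.41 in replicates 5 and 6, which form a run of array numbers of their own with WT neutrophil replicates 3 and 4. The mCG-PR promyelocytes read 9.71, 7.95 and 8.84. WT neutrophils read 7.73, 7.66, 8.57 and 8.84, the higher pair in the same run as the higher promyelocytes, and mCG-PR neutrophils read 8.77, 8.48 and 8.91. Another Atf3 probeset, chosen after its values were seen, read 9.00 and 7.22 in the WT and 3.99 and 3.18 in the mCG-PR SLAM arrays. That difference between genotypes (-4.52) did not pass, and of the SLAM arrays only WT replicate 1 reached the noise level. The probeset read 5.82, 9.35, 9.87, 7.76, 9.67 and 10.41 in WT promyelocytes and 9.83, 7.70, 9.49 and 9.47 in WT neutrophils, so that it did not split by run as the lead did.

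From KLS cells to CMPs, the question is how the group changes when cells leave the stem cell gate for the myeloid lineage. Fos fell by 4.46 on the log2 scale (SE 0.41, adjusted p = 3.27e-12), Fosb fell by 4.03 (SE 0.64, adjusted p = 1.22e-06), and Egr1 fell by 3.29 (SE 0.40, adjusted p = 3.55e-09). Jund fell by 2.69 (adjusted p = 2.58e-09), Junb by 2.25 (adjusted p = 1.25e-07) and Dusp1 by 1.48 (adjusted p = 2.38e-05). Jun rose by 0.54 (adjusted p = 0.000171), and Ier2 (-0.25), Fosl2 (-0.18) and Atf3 (-0.20) did not pass. In all 7 of 10 members passed, 6 lower and 1 higher, where 56.9% of the lead probesets of all genes passed, 38.3% lower and 18.5% higher. The median difference was -1.87 for the members and -0.25 for all lead probesets. The values are from limma over the 52 sorted arrays, with each step averaged over both genotypes and p-values adjusted by Benjamini-Hochberg over all 162846 probesets tested. The other probesets show which members fell at most of their probesets and which did not. The shares above are of lead probesets, and none over all tested probesets stands beside these counts. The median difference was -0.74 over the 75 tested probesets of the members and 0.10 over all tested probesets. For Fosb 4 of 4 tested probesets passed in the lower direction, for Fos 4 of 5, for Egr1 8 of 11, for Dusp1 4 of 6 and for Atf3 4 of 6, and none of theirs passed in the higher direction. For Jun 11 of 21 fell and 3 rose, so that the median of its probesets gave -1.65 in place of 0.54. For Junb 1 fell and 3 rose, and for Jund 2 fell and 3 rose, and the medians of their probesets gave 0.40 and 0.53 in place of a fall. For Fosl2 1 fell and 5 rose, and for Ier2 1 of 3 rose. With the median of a gene's probesets as its value, 6 members fell (Fosb, Egr1, Fos, Jun, Dusp1 and Atf3) and 3 rose (Ier2, Fosl2 and Jund), where 26.9% of all genes fell and 29.3% rose. Of 5 stem cell markers 4 fell at this step.

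From GMPs to promyelocytes most members were higher. Fos rose by 3.71 (SE 0.40, adjusted p = 4.44e-10), Egr1 by 3.29 (SE 0.39, adjusted p = 3.93e-09), Fosb by 3.23 (SE 0.63, adjusted p = 4.96e-05), Jund by 2.69, Junb by 2.36 and Dusp1 by 1.86. Fosl2 rose by 1.38 (adjusted p = 0.000444), Atf3 by 1.21 (adjusted p = 0.00232) and Ier2 by 1.15 (adjusted p = 0.00121), while Jun read -0.13 and did not pass. So 9 of 10 members passed in the higher direction and none in the lower, where 48.5% of all lead probesets passed, 33.1% higher and 15.4% lower, with a median of 2.11 for the members and 0.20 for all. The rise was seen at 16 of 21 probesets of Jun, 6 of 6 of Atf3, 4 of 4 of Fosb, 8 of 11 of Egr1, 5 of 6 of Dusp1 and 3 of 5 of Fos, with none of theirs lower. Junb had 1 probeset higher and 2 lower, Jund 2 and 3, Ier2 1 and 2 and Fosl2 2 and 1. Over the 75 tested probesets of the members the median difference was 1.15, and over all tested probesets it was -0.06. By the median of a gene's probesets Jund (-0.50), Ier2 (-1.06) and Fosl2 (-0.12) turned, and Junb (0.21, adjusted p = 0.453) was no longer past the threshold, while Jun (2.31, adjusted p = 4.8e-10) passed. Among the mCG-PR arrays alone Fosl2 (1.01, adjusted p = 0.114) did not pass, and among the WT arrays alone Atf3 (0.73, adjusted p = 0.204) and Ier2 (0.65, adjusted p = 0.11) did not pass. Markers of other cells moved with this step, with 5 of 6 T and NK cell markers higher (summed intensity 3143 to 7104 in GMPs and 4015 to 10240 in promyelocytes, with 2 of the 6 genes at 200 or more in each GMP array and 4 to 6 in promyelocytes), 4 of 5 stem cell markers higher and 8 of 9 neutrophil granule genes higher (6182 to 10970 against 22900 to 44859). Their part in the result was not tested, and both steps run into or out of the 1 run that holds all CMP, GMP and MEP arrays.

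**Figure D2:**
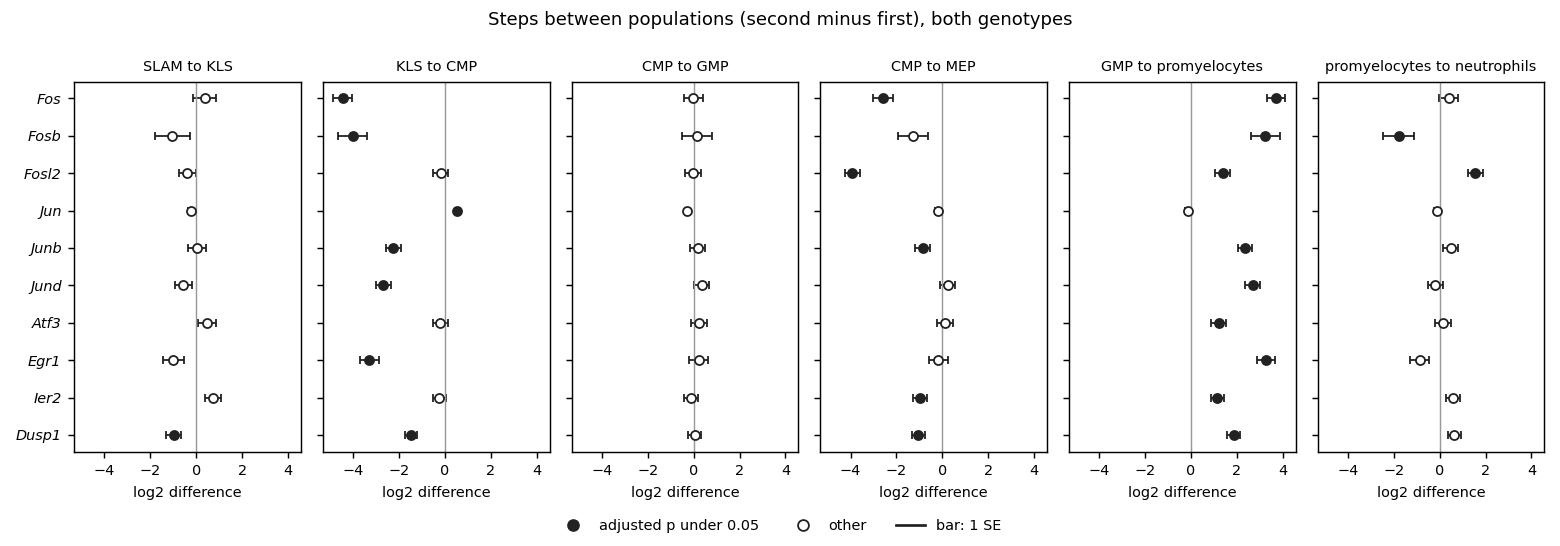
Log2 difference of each member's lead probeset at each step between populations (second minus first, averaged over WT and mCG-PR arrays), with bars of 1 SE and filled points where the adjusted p was under 0.05. All 10 members have opposite signs in the panels from KLS to CMP and from GMP to promyelocytes, and no point is filled from CMP to GMP.

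**Figure D3:**
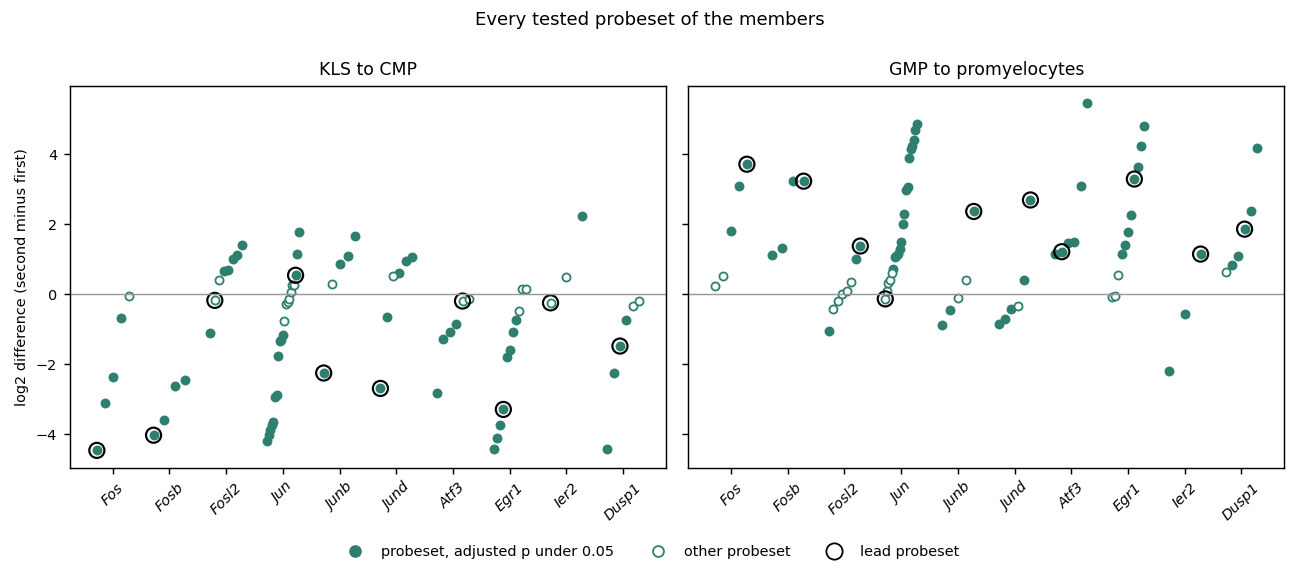
Log2 difference of every tested probeset of the 10 members at the steps from KLS to CMP and from GMP to promyelocytes. Fosb, Fos, Egr1, Dusp1 and Atf3 had no probeset called against the direction of the others, whereas Jun, Junb, Jund, Fosl2 and Ier2 had probesets called in both directions in at least 1 panel.

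Within the run of array numbers shared by CMPs, GMPs and MEPs, run does not differ between the groups. From CMPs to GMPs 0 of 10 members passed in limma, as did 0% of all lead probesets, and at an unadjusted p under 0.05 there was 1 member, Jun (-0.27). From CMPs to MEPs 5 of 10 members passed, all lower, where 22.5% of all lead probesets passed, 12.8% lower and 9.71% higher. Fosl2 fell by 3.93 (SE 0.33, adjusted p = 6.43e-13), Fos fell by 2.58 (SE 0.42, adjusted p = 4.39e-06), Dusp1 by 1.05 (adjusted p = 0.0046), Ier2 by 0.96 (adjusted p = 0.0143) and Junb by 0.86 (adjusted p = 0.045). Fosl2 and Fos were under the noise level in all 8 MEP arrays, so that the sizes of these falls are not exact. Counted from that level, Fosl2 was at least 2.47-fold lower there by the CMP mean. No bound is given for Fos, since CMP replicates 5113, 5114 and 5116 were under that level too. All 8 MEP arrays of Fosl2 and Fos were lower than every CMP array of Fosl2 and nearly every CMP array of Fos, where CMP replicates 5113 and 5114 reached the MEP range. Other probesets fell too for Fosl2 (4 of 8), Fos (4 of 5), Dusp1 (4 of 6), Ier2 (3 of 3) and Jun (5 of 21), with none higher. Over the 75 tested probesets of the members the median difference was -0.46, and over all tested probesets it was 0.05. Junb was lost on leaving out any 1 of 10 arrays (adjusted p = 0.0605 to 0.138), and with either genotype alone 2 of the 5, Fosl2 and Fos, still passed. Egr1 (-0.17), Jund (0.23) and Fosb (-1.29, adjusted p = 0.148) did not pass. Without the arrays that stand apart, which in these populations are all mCG-PR and were picked after the data were seen, Fosb did (-2.36, adjusted p = 0.0115). Erythroid and megakaryocyte markers moved with the sort, from a summed intensity of 1838 to 14250 in CMPs to 14986 to 17759 in MEPs. So did those of granulocytes and monocytes, which share the lower direction of the members. All 4 primary granule genes were lower (25010 to 45709 in CMPs and 444 to 4408 in MEPs), as were 7 of 8 monocyte and macrophage genes (10387 to 19917 and 879 to 2251) and 4 of 5 basophil and mast cell genes, and their part in the result was not tested.

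From SLAM to KLS cells Dusp1 fell by 0.98 (SE 0.33, adjusted p = 0.0313), 1 of 10 members, where 16.8% of all lead probesets passed. Leaving out any 1 of the 4 SLAM arrays, WT KLS replicate 3 or the third mCG-PR KLS replicate at 6 weeks ended this call (adjusted p = 0.054 to 0.0787), as did leaving out the arrays that stand apart (adjusted p = 0.0525). Egr1, whose 9 KLS arrays were all below its 4 SLAM arrays, differed by -0.99 (adjusted p = 0.139). WT KLS replicates 1 and 2 were run apart from the other KLS and SLAM arrays, and without them 4 members passed, all lower, where 8.41% of all lead probesets passed, 1.56% lower: Dusp1 (-1.16, adjusted p = 0.00983), Fosb (-1.36, adjusted p = 0.0335), Egr1 (-1.19, adjusted p = 0.0351) and Jund (-0.78, adjusted p = 0.0479). In that run Fos differed by 0.31 and Junb by -0.10, neither past the threshold.

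From promyelocytes to neutrophils 2 of 10 members passed, 1 in each direction, where 26.7% of all lead probesets passed, 8.22% higher and 18.5% lower. Fosl2 rose by 1.55 (SE 0.33, adjusted p = 0.000283), with 6 of 8 of its probesets higher and none lower. Fosb fell by 1.79 (SE 0.66, adjusted p = 0.035), with 4 of 4 probesets lower. The rise of Fosl2 was 1.25 (adjusted p = 0.0425) in the WT arrays of the runs that hold both populations, with run as a block, and 1.88 (adjusted p = 0.00132) in the single run of the mCG-PR arrays, where 19.5% and 35.2% of all lead probesets passed. The fall of Fosb was 1.06 with adjusted p = 0.16 in the former and 2.32 with adjusted p = 0.0135 in the latter, and it was lost on leaving out any 1 of 9 arrays (adjusted p = 0.0506 to 0.106). Jun had 10 of 21 probesets lower and none higher, although its lead read -0.12, and Dusp1 had 4 of 6 higher with a lead of 0.63 (adjusted p = 0.0976). In the blocked WT fit Ier2 was also higher (1.45, adjusted p = 0.00704), and in the mCG-PR run Egr1 was lower (-1.50, adjusted p = 0.042). With the mCG-PR arrays of all populations in the fit, which then share 1 estimate of the spread, Fosb (adjusted p = 0.104) and Egr1 (adjusted p = 0.0959) did not pass at this step and Fosl2 did (adjusted p = 0.00957). At the same step 7 of 9 neutrophil granule genes rose (summed intensity 56391 to 70370 in neutrophils), and all 6 T and NK cell markers (1593 to 3655 in neutrophils) and 4 of 5 stem cell markers fell, and their part in the result was not tested.

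Comparing mCG-PR with WT mice within a population asks whether PML-RARA alters the group before leukemia. Limma called none of the members in any of the 7 populations. Of all lead probesets it called 0% in SLAM cells, 0.00668% in KLS cells, 0.0209% in CMPs, 0.0882% in GMPs, 0% in MEPs, 0.0197% in promyelocytes and 0% in neutrophils. At an unadjusted p under 0.05 limma passed 3.12% of all lead probesets in SLAM cells, 9.23% in KLS cells, 7.86% in CMPs and 6.36% in GMPs. In MEPs, promyelocytes and neutrophils the shares were 7.07%, 20% and 14.2%. At that threshold there was 1 member in each population except KLS cells, which had none. These were Fosl2 in SLAM cells (-2.87, adjusted p = 0.862), Fosb in CMPs (-2.92, adjusted p = 0.474), Fosb in GMPs (-3.02, adjusted p = 0.306), Jund in MEPs (-1.06, adjusted p = 0.628), Ier2 in promyelocytes (0.94, adjusted p = 0.216) and Fosb in neutrophils (-1.76, adjusted p = 0.245). An analysis of variance on the linear intensities, with the methods' cutoffs of 0.001 and 2-fold, also gave 0 members in each population. Fosb was under the noise level in 3 of 4 mCG-PR arrays in CMPs, in 3 of 4 in GMPs and in 2 of 3 in neutrophils, so that the sizes of its differences there are not exact, and its SD among replicates was 1.42 to 1.95 in CMPs and GMPs. With array weights it passed in neutrophils (-1.78, adjusted p = 0.0279), where 11.1% of all lead probesets passed. In CMPs and GMPs marker genes also differed between arrays of 1 genotype, with a summed erythroid and megakaryocyte intensity of 12917 in WT CMP replicate 4111 against 2212 and 1838 in the other 2, and of 16901 and 14275 in WT GMP replicates 4212 and 4213 against 2341 to 2693 in the other 2. The summed intensity of 5 basophil and mast cell markers moved with the genotype, from 4304 to 5446 in WT to 16917 to 19123 in mCG-PR CMPs and from 4054 to 6517 to 18220 to 22888 in GMPs, with 1 and 2 of 4 tested genes higher. The part of these markers in the difference was not tested. In promyelocytes all 21 Jun probesets were above 0 (0.17 to 2.37, median 1.05), none past the threshold, and the probeset of Jun described above read 11.20 to 12.34 in WT and 12.19 to 12.78 in mCG-PR arrays. Promyelocytes and neutrophils of the mCG-PR mice share 1 run, which holds no WT array, so that genotype and run cannot be told apart there. Genotype and age cannot be told apart in SLAM cells (WT at 6 and mCG-PR at 7 weeks). The same holds for CMPs, GMPs and MEPs (WT at 7 and mCG-PR at 9 weeks). In KLS cells the WT arrays were labelled 12 or 13 weeks and the mCG-PR arrays 13 or 6 weeks.

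The genotype difference was compared between populations in all 21 pairs. Fosl2 was the only member to pass, in 5 pairs that all include SLAM cells. The difference was 2.99 higher in KLS cells than in SLAM cells (adjusted p = 0.01588), 2.84 in CMPs, 2.95 in GMPs and 2.89 in neutrophils. It also passed for MEPs (adjusted p = 0.008876), but all 8 MEP arrays of Fosl2 were under the noise level, so that no size is given there. Of all lead probesets 3.97% passed for KLS cells, 3.54% for CMPs, 4.55% for GMPs, 3.37% for MEPs and 3.68% for neutrophils, each against SLAM cells. Without the arrays that stand apart, the WT SLAM array with the high granule genes among them, none of the 5 passed.

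The leukemias were set beside WT promyelocytes, mCG-PR promyelocytes and WT neutrophils, of which the first and the last share the leukemias' run of array numbers in part. Tissue, spleen or marrow, differs between the leukemias and all of them. All 3 comparisons share the 15 leukemias. Against WT promyelocytes 4 of 10 members passed, all lower, where 25.5% of all lead probesets passed, 9.79% lower and 15.8% higher. Egr1 fell by 1.59 (SE 0.25, adjusted p = 7.06e-05), Atf3 by 1.35 (adjusted p = 0.00171), Fosb by 1.31 (adjusted p = 0.0219) and Fos by 0.99 (adjusted p = 0.0114). With the 3 WT promyelocyte arrays of the leukemias' own run, where 12.2% of all lead probesets passed, Egr1 (-1.40, adjusted p = 0.00738) and Atf3 (-0.79, adjusted p = 0.0207) passed, and Fos (-0.49, adjusted p = 0.413) and Fosb (-1.20, adjusted p = 0.176) did not. Atf3 was under the noise level in all 15 leukemias and in most of these WT arrays, so that its difference within the run compares values at or near noise. Fosb was also lost on leaving out WT promyelocyte replicate 2, 3 or 4 (adjusted p = 0.058 to 0.067).

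Against mCG-PR promyelocytes 5 members passed, 4 lower and 1 higher, where 46.1% of all lead probesets passed, 10.5% lower and 35.6% higher. Atf3 fell by 2.36 (SE 0.26, adjusted p = 3.42e-06), Egr1 fell by 2.27 (SE 0.31, adjusted p = 2.81e-05), Fos by 1.33 (adjusted p = 0.00407) and Ier2 by 1.06 (adjusted p = 0.0461), while Fosl2 rose by 1.07 (adjusted p = 0.00265). The highest leukemia was below the lowest of these promyelocytes for Egr1 (11.28 against 12.07) and for Atf3 (6.91 against 7.95). Ier2 depended on promyelocyte replicate 2, the highest array at 11.05, without which it differed by -0.50 (adjusted p = 0.402), and it was lost without replicate 1 too (adjusted p = 0.0953). By the median of a gene's probesets Fos (-0.31), Ier2 (-0.47) and Fosl2 (0.35) did not pass, and Jund (0.38, adjusted p = 0.00811) did. Of the Jun probesets 12 of 21 were lower and none higher. These promyelocytes are in another run than the leukemias, and run and disease cannot be told apart.

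Against WT neutrophils 7 members passed, all lower, where 28.6% of all lead probesets passed, 7.26% lower and 21.4% higher. These were Atf3 (-1.72, adjusted p = 5.18e-06), Fos (-1.62, adjusted p = 0.000307), Ier2 (-1.45, adjusted p = 0.00592), Egr1 (-1.34, adjusted p = 0.00647), Dusp1 (-1.11, adjusted p = 0.00745), Junb (-0.96, adjusted p = 0.0307) and Fosl2 (-0.79, adjusted p = 0.00851). With the 2 neutrophil arrays of the leukemias' run 8 members passed, where 18.2% of all lead probesets did, Jund being the addition (-0.89, adjusted p = 0.0166), and Egr1 and Ier2 differed by -2.36 and -2.32. Egr1 was lost without WT neutrophil replicate 1 (adjusted p = 0.0543), and Junb without replicate 1 (adjusted p = 0.0785) or 2 (adjusted p = 0.128). Atf3 was under the noise level in all 15 leukemias. Counted from that level, it was at least 1.47-fold lower than the mean of WT neutrophils and at least 2.28-fold lower than that of mCG-PR promyelocytes. No bound is given against WT promyelocytes, where replicates 1, 2 and 4 were under that level too. The other Atf3 probeset read 3.16 to 7.32 in the leukemias and 5.82 to 10.41 in WT promyelocytes. Egr1, Atf3 and Fos passed in the lower direction in each of the 3 comparisons, and the lead probeset of Jun in none. Other probesets of Jun and Fosb went the other way against WT neutrophils. There 10 of 20 tested Jun probesets and 2 of 4 tested Fosb probesets were higher, with none of theirs lower. T and NK cell markers were lower in leukemias than in WT promyelocytes as well, in 5 of 6 genes (summed intensity 3210 to 7423 against 5866 to 10240), as were 3 of 5 stem cell markers, 4 of 6 erythroid and megakaryocyte markers and 3 of 5 basophil and mast cell markers (5167 to 15715 against 15844 to 23368). Against WT neutrophils 6 of 9 neutrophil granule genes were lower (16529 to 50734 against 56391 to 70162). The part of these markers in the results was not tested.

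**Figure D4:**
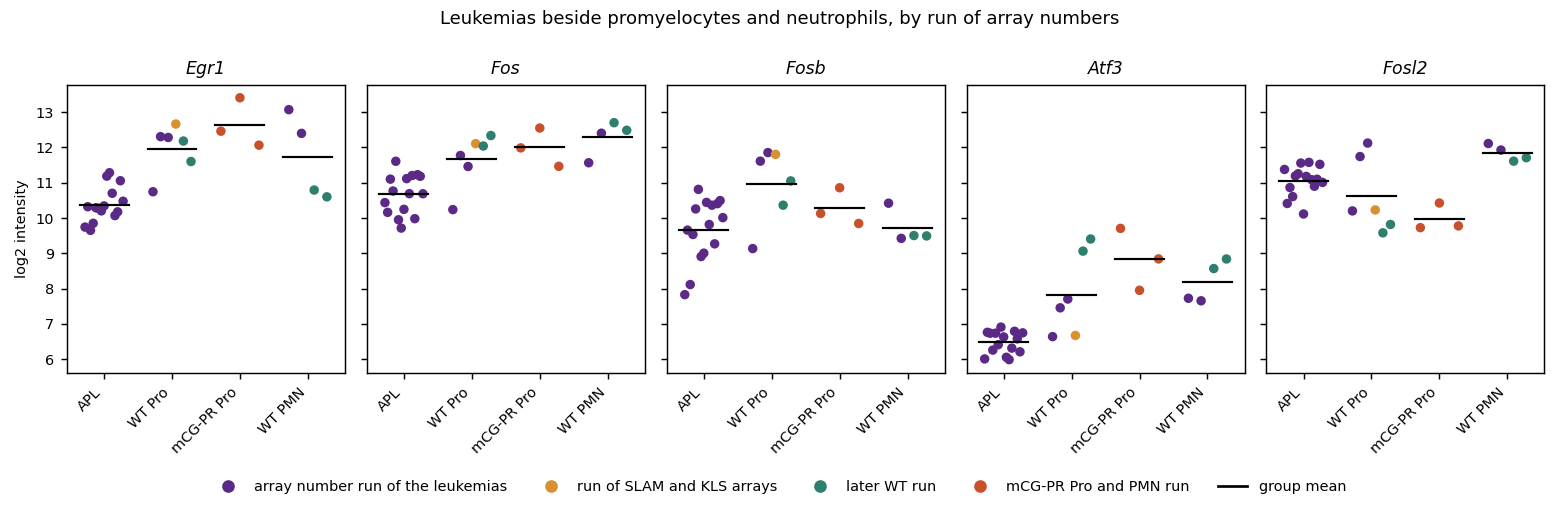
Log2 intensity of Egr1, Fos, Fosb, Atf3 and Fosl2 in each array of the leukemias, WT and mCG-PR promyelocytes and WT neutrophils, coloured by run of array numbers, with group means as lines. All 15 leukemias lie at or below 6.91 for Atf3 and at or below 11.28 for Egr1, where WT neutrophils of the leukemias' own run read 13.07 and 12.40.

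Spread among arrays of 1 group was large for most members. The pooled SD within groups over the 52 sorted arrays was 1.33 for Fosb, 0.84 for Fos, 0.81 for Egr1, 0.68 for Atf3, 0.66 for Fosl2, 0.65 for Junb, 0.65 for Jund, 0.60 for Ier2, 0.57 for Dusp1 and 0.20 for Jun, against a median of 0.36 for all lead probesets. Placed among 17038 lead probesets, 7 of the 10 were above the 90th percentile in spread, from 99.9 for Fosb down to 3.93 for Jun, and the median member was at 92.7. Fos and Fosb spread more in CMPs, GMPs and MEPs (SD 1.13 and 1.77) than in the other sorted arrays (0.48 and 0.80), while Atf3 spread less there (0.35 against 0.86). In the leukemias the median of 9 members ranked was at the 91.3rd percentile, with Fosb again the highest (SD 0.89).

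Some of the members deviated from their group means in the same arrays. No correlation between pairs of other genes stands beside these values, so they do not show a trait of the members. The Pearson correlation of deviations, a description over arrays that share runs, was 0.75 for Fosb and Dusp1, 0.74 for Jund and Dusp1, 0.72 for Fos and Fosb and 0.72 for Fosb and Jund over 52 arrays. It was over 0.5 in 10 of 45 pairs and below 0 in 12, with a median of 0.22 for lead probesets and 0.32 for gene values. Atf3 (-0.03) and the lead probeset of Jun (0.09) did not follow the mean of the members, whereas Fosb (0.89), Dusp1 (0.86) and Jund (0.79) followed it closest. Each member is itself part of that mean, and members of large spread, Fosb above all, weigh most in it. These values are therefore in part set by how the mean is built. By gene values Jun did follow Fos (0.74), as most of its other probesets moved. The arrays with the highest mean deviation over the members were mCG-PR CMP 5115 (0.81), WT CMP 4111 (0.62), mCG-PR MEP 5315 (0.58), WT MEP 4311 (0.56) and mCG-PR GMP 5215 (0.54). Those with the lowest were WT promyelocyte replicate 1 (-0.80), mCG-PR CMP 5114 (-0.77) and WT MEP 4313 (-0.66). The CMP, GMP and MEP arrays numbered 5115, 5215 and 5315 end alike and were all high, and so did and were 4111, 4211 (0.32) and 4311. Of the 7 sets of such numbers with an array in each of the 3 populations, 2 were above 0 in all of them, 4 below 0 in all and 1 mixed. Whether arrays whose numbers end alike come from 1 mouse is not stated in the sources used here. In the leukemias Junb and Jund had the highest correlation, 0.80 over 15 arrays.

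**Figure D5:**
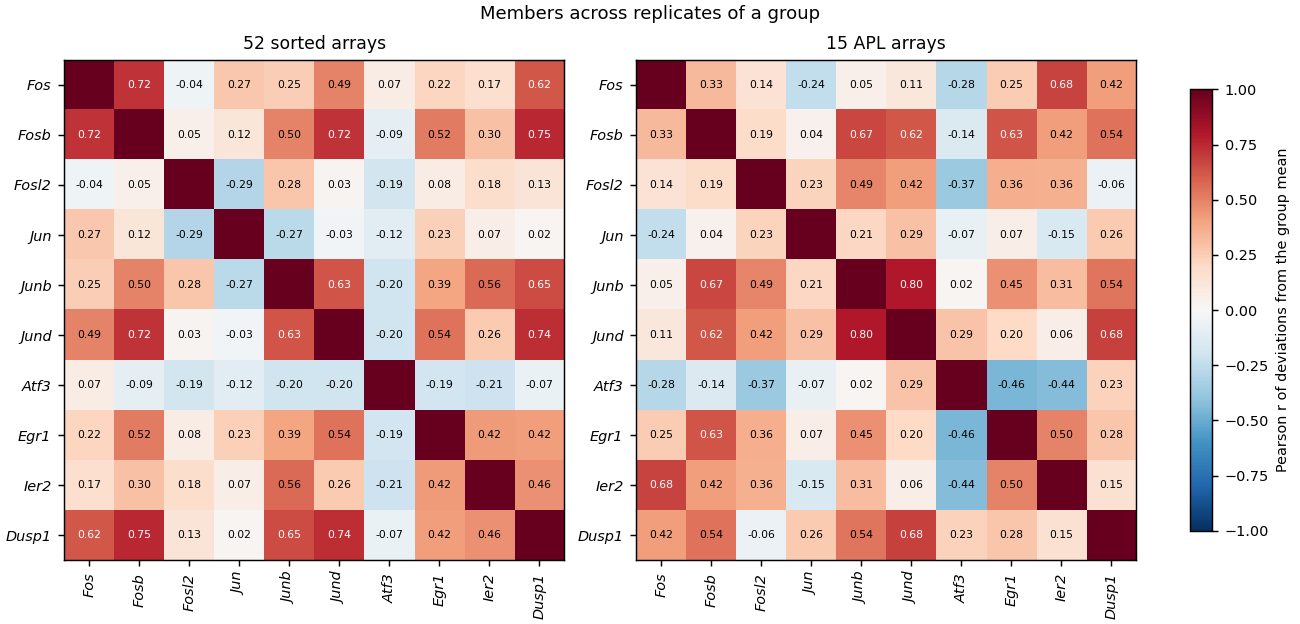
Pearson correlation of the members' deviations from their group means, for 52 sorted arrays and for 15 leukemias. Fos, Fosb, Jund, Junb, Egr1 and Dusp1 form a block of positive values in the sorted arrays, and the lead probeset of Jun stands outside it.

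Of 17468 other genes compared over the 52 sorted arrays, those whose deviations were most like the mean of the members' were Zfp36 (r = 0.68), which encodes a protein that destabilizes mRNAs of immediate early genes and cytokines, Wdfy3 (0.63), Itprip (0.63), Sfrs10 (0.60), the immediate early gene Ier3 (0.59), the histone gene Hist1h1c (0.59), Cd69 (0.58), an early activation antigen of lymphocytes, Rbm39 (0.57), Ivd (0.57) and Polg2 (0.56).

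Other genes of the pathway were followed in lists. Their counts stand beside the shares of all lead probesets that fell or rose, which were 38.3% and 18.5% from KLS cells to CMPs, 15.4% and 33.1% from GMPs to promyelocytes, 12.8% and 9.71% from CMPs to MEPs, 18.5% and 8.22% from promyelocytes to neutrophils, and 9.79% and 15.8% in the leukemias against WT promyelocytes. Among the other immediate early genes (40 tested), 23 fell and 7 rose from KLS cells to CMPs, with a median of -0.70, and 25 rose and 4 fell from GMPs to promyelocytes, with a median of 0.80. The Krüppel-like factor Klf6 fell by 3.63 and rose by 3.78 at these steps, at or above the noise level in every array of these populations. Its relative Klf2 was under that level in all CMP and GMP arrays and was at least 5.23-fold lower in CMPs than in KLS cells and at least 6.04-fold higher in promyelocytes than in GMPs. Btg2, which restrains proliferation, passed lower and then higher, and reached the noise level in 1 of 7 CMP and 3 of 8 GMP arrays. Nr4a1, an orphan nuclear receptor, passed lower from KLS cells to CMPs, where 1 of 7 arrays reached that level. Tnfaip3, an inhibitor of NF-κB signalling, was under it in all 8 GMP arrays and at least 7.13-fold higher in promyelocytes. From CMPs to MEPs 10 fell and 3 rose, with Rhob and Nfil3 under the noise level in all 8 MEP arrays and at least 7.09-fold and at least 2.03-fold lower there. From promyelocytes to neutrophils 13 rose and 3 fell, with Ptgs2, the inducible cyclooxygenase, up by 2.36 and Myc down, the latter at the noise level or above in 5 of 7 neutrophil arrays. In the leukemias against WT promyelocytes 3 rose and 6 fell of 38. Gadd45b, a stress-induced gene, was higher and reached the noise level in 1 of 6 WT promyelocyte arrays, and Ptgs2 was lower and reached it in 2 of 15 leukemias.

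Of the other AP-1 and bZIP partners (11 tested), 6 fell and none rose from KLS cells to CMPs, among them Atf2 (-1.08), and 5 rose and none fell from GMPs to promyelocytes. The small MAF genes Maff and Mafk passed at both steps, and of the 8 GMP arrays 1 and 2 reached the noise level for them. Jdp2, a repressor that dimerizes with JUN proteins, rose by 1.54 from promyelocytes to neutrophils. Among 9 other dual specificity phosphatases, 4 fell and 2 rose from KLS cells to CMPs. Dusp6, which acts on ERK, fell by 2.62 and then rose by 2.62 from GMPs to promyelocytes, while Dusp7 passed in the opposite directions, with 5 of 9 KLS and 6 of 9 promyelocyte arrays at or above the noise level. The 18 upstream kinases and factors had no common direction, with 8 higher and 7 lower from KLS cells to CMPs and 3 higher and 8 lower from GMPs to promyelocytes, Elk4, a partner of serum response factor, at -2.14 and 1.24. No gene of these 4 lists passed between genotypes in any population.

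Heat shock genes, which cell handling can also induce, were listed for comparison. Of 8 tested, 5 fell and 1 rose from KLS cells to CMPs, 7 rose and 1 fell from GMPs to promyelocytes, and 6 fell and none rose from promyelocytes to neutrophils. Hspa1a, the inducible HSP70, was under the noise level in all 8 GMP arrays and at or above it in 4 of 9 promyelocyte arrays. It was the 1 gene of these lists that passed between genotypes (adjusted p = 0.0459), at a mean log2 intensity of 11.81 in mCG-PR promyelocytes, whereas 1 of the 6 WT arrays reached the noise level. In the leukemias 6 of the 8 were lower than in mCG-PR promyelocytes, Hspa1a by 2.88. These moved beside Egr1, Atf3 and Ier2, which were also lower there, and the part of cell handling in either was not tested.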

How the data were processed

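The authors amplified RNA with the NuGen WT-Ovation system, hybridised it to Affymetrix Mouse Exon 1.0 ST arrays and normalized the arrays by RMA. The deposited values are intensities on a linear scale (2.01 to 20140), with column medians of 71.9 to 83.2. RMA, Partek 6.6 and the build mm9 are named in the submitters' notes. These deposited intensities were converted to log2, and no pseudocount was added. Probesets were named through the platform annotation (259411 with 1 symbol, 1897 with several and 190496 with none, the last 2 kinds not tested). RMA brings all arrays to a like distribution, so that a shift shared by most genes would not be seen.

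The members and the gene lists were chosen with earlier results of these data known. A member was named by its lead probeset, and of each list at most the 4 genes of largest change among those that passed the test were named. Probesets of at least 200 in at least 1 array of a comparison were tested by lmFit and eBayes of limma 3.58.1 (R 4.3.3), with Benjamini-Hochberg adjustment over all of them and a threshold of 0.05. Genotypes were compared within a population, the steps in 1 fit over 52 arrays and the leukemias with each reference group. Counts of a gene's probesets that passed have no share over all probesets beside them, in any comparison. Where all arrays of a group were under 200, a bound from 200 to the mean of the other group is given. None is given for Fos in MEPs or for Atf3 against WT promyelocytes, where arrays of the other group were under 200 too. Per the methods marrow came from individual mice, no 2 arrays held identical values, and the number of arrays limits the precision. Runs are runs of consecutive array numbers in the titles, 7 in all, and nothing else is known of them. RefSeq windows are of GRCm38.p6 and no coordinates of probesets were used.

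The limma fits were first tested on simulated data. Of 100 changes of 1 on the log2 scale, the genotype fit called 0 in CMPs, 3 in promyelocytes and 25 in KLS cells. Of 100 changes of 2 it called 18, 65 and 87. The fit of leukemias against WT promyelocytes called 60 and 94, and the step from KLS cells to CMPs 43 and 88. A missing call between genotypes therefore does not show that a member is unchanged. The alternatives were an analysis of variance on linear intensities at the methods' cutoffs (the scale of the methods' test is not given in the sources used here), no adjustment, no filter, a second quantile normalization, gene values (the median of a gene's probesets), array weights, a fit over all sorted arrays, single genotypes, ages or runs, run or replicate blocks, and leaving out each array.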

Additional observations from a re-analysis of the deposited data

Results flagged for a closer look

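Single arrays were flagged in 9 of 90 combinations of a member and a group of 4 to 10 arrays, and chance flags about 1 in 20. The flag sets the gap to the next array against the range of the group, so a small gap can raise it where the others lie close. WT MEP replicate 4312 was flagged for 3 members, with 10.51 for Jun against 11.04 to 11.07 in the others, 7.08 for Junb against 6.65 to 6.71 and 7.64 for Ier2 against 7.23 to 7.24. These Junb and Ier2 values were all at or under the noise level. The third mCG-PR KLS replicate at 6 weeks was low for Ier2 (7.38 against 8.88 to 9.39) and Dusp1 (10.51 against 11.14 to 11.35). Fosb was high in WT neutrophil replicate 1 (10.42 against 9.42 to 9.50), and Jund in mCG-PR GMP replicate 5215 (9.80 against 7.91 to 7.95). Fosl2 was low in WT KLS replicate 1 (8.76 against 9.15 to 9.19), and Ier2 in mCG-PR MEP replicate 5313 (7.09 against 7.72 to 7.81). All values are log2 intensities.

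In SLAM cells Fosl2 differed between the genotypes by -2.87 (mCG-PR less WT). The signed difference was higher than that by 2.99 in KLS cells (SE 0.77), by 2.84 in CMPs, by 2.95 in GMPs, by 3.31 in MEPs and by 2.89 in neutrophils, and the value for MEPs rests on 8 arrays that were all under the noise level. The Ctsg KO arrays, which no comparison used, were both above every WT KLS array for Fosl2 (mean 10.91, with 10.39 and 11.44, against at most 9.19). For the lead probeset of Jun they were so too (mean 10.70, with 10.60 and 10.80, against at most 10.50). The other Jun probeset described above read 10.62 and 11.81 in them, neither above every WT KLS array (12.19, 12.58, 11.32 and 12.15).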

How the results depend on the processing

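Over 40 calls of a member in a comparison, leaving out 1 array kept the call in 419 of 452 fits, lost it in 33 and turned none. The other alternatives kept it in 189 of 229 values, lost it in 34 and turned 6, all 6 by taking the median of a gene's probesets: Jund (0.53), Jun (-1.65) and Junb (0.40) from KLS cells to CMPs, and Jund (-0.50), Ier2 (-1.06) and Fosl2 (-0.12) from GMPs to promyelocytes. The cause was not tested.

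Counts of members called moved as follows, with the share of all lead probesets that passed under the same setting in brackets. Between genotypes the count was 0, and it was 0 on leaving out any array. At an unadjusted p it became 1 in SLAM cells (3.12%), CMPs (7.86%), GMPs (6.36%), MEPs (7.07%), promyelocytes (20%) and neutrophils (14.2%). It also became 1 in SLAM cells with all sorted arrays in the fit (7.51%) and in neutrophils with array weights (11.1%). From SLAM to KLS cells the count of 1 became 2 in WT arrays alone (7.78%), 0 in mCG-PR arrays alone (13.4%) and 4 in their shared run (8.41%). It became 0 without the arrays that stand apart (17%) and 0 to 1 on leaving out an array. From CMPs to MEPs the count of 5 became 2 in either genotype alone (11.3% in WT and 14.3% in mCG-PR arrays) and 4 to 5 on leaving out an array. From promyelocytes to neutrophils the count of 2 became 1 in the mCG-PR arrays of all populations alone (18.5%) and 1 with no filter (20.4%). It became 4 with gene values (33% of all genes) and 1 to 3 on leaving out an array. For the leukemias the count of 4 against WT promyelocytes became 2 in the shared run (12.2%) and 3 to 5 on leaving out an array. The count of 5 against mCG-PR promyelocytes became 3 with gene values (50% of all genes) and 4 to 5 on leaving out an array. The count of 7 against WT neutrophils became 4 with array weights (61.3%) and 5 to 7 on leaving out an array. Without the arrays that stand apart the members' median percentile of spread was 93.9, and the count of differences between populations went from 5 to 0. The median correlation between members was 0.32 with gene values. Alternatives within single runs and without the arrays that stand apart for the genotype, step and population-difference results were added after seeing the data.

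Over all lead probesets same-numbered arrays did not deviate together (correlations from -0.34 to 0.15), so that the numbers were not taken to pair the samples, though the members' mean deviation had 1 sign in 6 of 7 sets of like-ending numbers of CMPs, GMPs and MEPs. With a replicate block the count between genotypes stayed 0 in SLAM cells, KLS cells, promyelocytes and neutrophils and from CMPs to GMPs, and it was 4 from CMPs to MEPs, where Junb (-0.85, adjusted p = 0.111) was lost. In these fits 3.74% of all lead probesets passed between genotypes in promyelocytes, 24% from CMPs to MEPs and 0% in the others.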
